A study of Rattus norvegicus with 12 samples.

Results

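The miR-29 family on the rat miRNA array consisted of 3 guide strands, rno-miR-29a, rno-miR-29b and rno-miR-29c, taken by name from the 388 miRNAs that the array measures. All 3 were detected by the scanner software on all 12 arrays. The arrays measured total RNA from milk whey, the fluid left after fat, cells and casein are spun out of milk, and from serum. Rats 1, 2 and 3, dams of the strain F344/N, each gave whey 2, 9 and 16 days after birth of the litter and serum on day 21, around weaning. This makes 4 groups of 3 samples, and no group received an experimental treatment. For milking, the dams were kept apart from their litters for some hours, injected with oxytocin and lightly anaesthetised, whereas blood was drawn at sacrifice under deep anaesthesia. Every array received 70 ng of total RNA, so the values are levels per amount of RNA and not per volume of milk or blood. The serum was taken later than any whey, so that time and fluid cannot be told apart in the serum comparisons.

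MicroRNAs are short RNAs that lower the output of messenger RNAs, chosen mainly through pairing with the seed near the 5′ end of the miRNA. In several tissues of mammals, miR-29 is known for lowering messages of the extracellular matrix, such as collagens and elastin, and of the DNA methyltransferases DNMT3A and DNMT3B. In bovine mammary epithelial cells it has been studied as a regulator of DNA methyltransferases. In human cells miR-29b is known to be imported into the nucleus through its 3′ end, which its relatives lack.

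The mature sequences are shown because the 3 members share 1 seed and differ only outside it, which decides what the probes can separate. The seed, bases 2 to 8 counted from the 5′ end, is in capitals, and the sequences are those of RefSeq on the build GRCr8.
rno-miR-29a: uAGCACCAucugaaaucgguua
rno-miR-29b: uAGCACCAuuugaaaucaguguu
rno-miR-29c: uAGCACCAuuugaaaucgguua
Among the 693 mature rat miRNA names of that RefSeq table, only these 3 carried this seed. From rno-miR-29a to rno-miR-29c a single position differed, C10U. From rno-miR-29c to rno-miR-29b, 3 positions differed, G18A, U21G and A22U, and rno-miR-29b was 1 base longer. Thus rno-miR-29a and rno-miR-29c shared their 3′ end, and rno-miR-29b and rno-miR-29c shared the centre.

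The hairpins lie in pairs on 2 chromosomes of GRCr8. Mir29a (chr4:60617955-60618042) and Mir29b1 (chr4:60618334-60618414) lie on the minus strand, 291 bases apart. Mir29b2 (chr13:109098831-109098911) and Mir29c (chr13:109099359-109099446) lie on the plus strand, 447 bases apart. The mature rno-miR-29b is the same from Mir29b1 and Mir29b2, so its signal is the sum of both loci and the array cannot divide it between them.

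Each member was read by 2 probes of 10 spots each. The probes are complementary to the miRNA from its 3′ end and are shown 5′ to 3′ as DNA, with the bases in capitals at the positions where the family members differ.
rno-miR-29a, longer probe: TAacCgatttcaGatggtgc
rno-miR-29b, longer probe: aACacTgatttcaAatggtgct
rno-miR-29c, longer probe: TAacCgatttcaAatggtgcta
A probe of rno-miR-29a meets rno-miR-29c with 1 mismatched base, and the reverse holds as well. How much signal crosses between rno-miR-29a and rno-miR-29c was not tested. The probe of rno-miR-29b has 4 bases without a match in rno-miR-29c and 5 without a match in rno-miR-29a. In each count, 1 stands for the extra base at the 3′ end of rno-miR-29b, and the others are mismatches.

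The signal of all miRNAs together differed between groups, from 21620 to 25457 units on the day 2 arrays against 70020 to 160603 on the others. Between 109 and 165 miRNAs were detected on an array. Days 2 and 9 were hybridised on 1 slide and day 16 and serum on the other, so that day 9 against day 2 and serum against day 16 lay within a slide, whereas in the other 4 comparisons slide and group cannot be told apart. The summed signals of the marker miRNAs followed the labels of the fluids, though not every single marker did. Of 7 epithelial miRNAs (the miR-200 family, rno-miR-203 and rno-miR-205), 6 were detected on all whey arrays of each day. The summed signal of the 7 was 5.94 to 9.89% of a whey array, against 0.147 to 0.364% in serum. However, 5 of them were detected on all serum arrays too. On the normalized log2 scale described below, rno-miR-203 had a higher mean in serum (3.57) than in whey of any day (2.53 to 3.20). Of 7 miRNAs of blood cells, endothelium or platelets, and liver, 6 were detected on all serum arrays. The 7 summed to 21.3 to 24.2% in serum, against 0.0403 to 0.512% in whey. Among them rno-miR-142-3p had a normalized log2 mean of 3.15 in serum, no higher than in day 9 and day 16 whey (3.19 and 3.43). In whey, rno-miR-223 was detected on all arrays, rno-miR-142-3p on 3 of 9 and rno-miR-451 on 1 of 9, and rno-miR-144, rno-miR-150, rno-miR-126 and rno-miR-122 were detected on no array. Their part in the values of the miR-29 members was not tested.

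rno-miR-29a had the following total signals, in scanner units before any normalization. In day 2 whey it read 252, 341 and 339 in rats 1, 2 and 3. In day 9 whey it read 1074, 1943 and 1408, and in day 16 whey 1567, 2902 and 2249. In serum it read 7679, 6030 and 3647. The groups rose in that order, day 2 lay below all other arrays and serum above them, and only the days 9 and 16 overlapped. Its share of the whole array signal was 1.12 to 1.38% on day 2, 1.19 to 1.99% on day 9, 2.04 to 2.41% on day 16 and 4.05 to 4.87% in serum.

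rno-miR-29b read 14.9, 25.6 and 20.4 in day 2 whey. It read 57.5, 99.3 and 106 on day 9 and 145, 298 and 208 on day 16. In serum it read 235, 249 and 137, within the range of day 16 except for rat 3, which was lower. Day 2 was its dim group. There, 25, 45 and 40% of its 20 spots were well above background, against 100% on every other array, and the error given by the scanner software was 14.2 to 24.0% of the signal, against 8.19 to 9.63% elsewhere.

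rno-miR-29c read 59.8, 81.1 and 77.0 in day 2 whey. It read 149, 282 and 219 on day 9, 210, 459 and 335 on day 16, and 1072, 971 and 542 in serum. As for rno-miR-29a, serum was above every whey array and day 2 below every other, with days 9 and 16 overlapping. None of the spots of the 3 members was saturated.

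**Figure D1:**
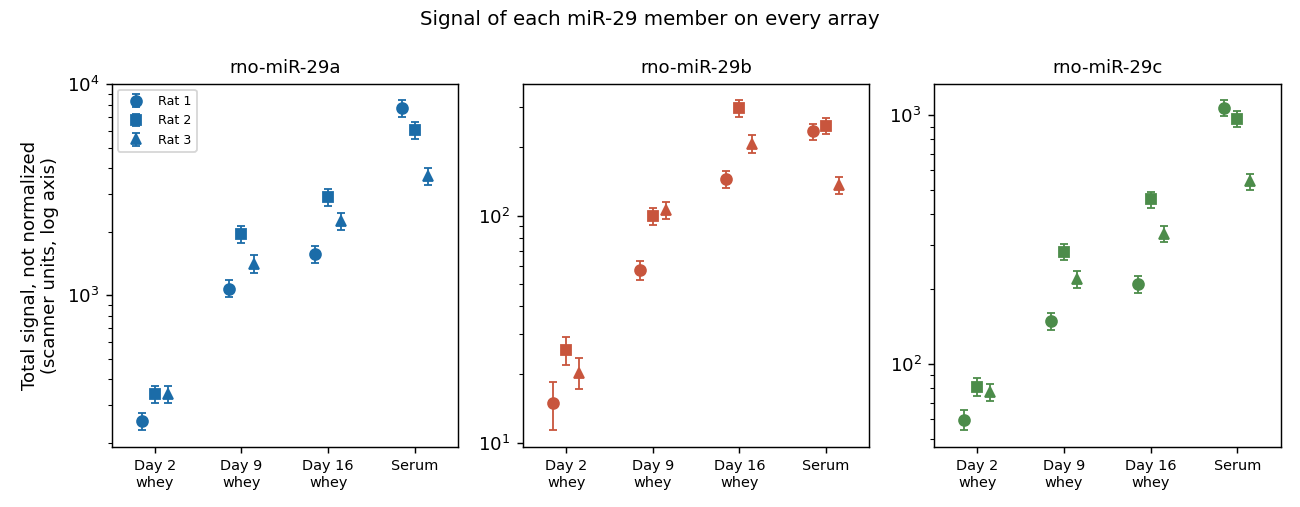
Total signal of rno-miR-29a, rno-miR-29b and rno-miR-29c on each of the 12 arrays before normalization, in scanner units on a log axis, with the error of the scanner software as bars and the rats as symbols. Day 2 whey is lowest for all 3, and serum is above every whey array for rno-miR-29a and rno-miR-29c but not for rno-miR-29b.

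The arrays were then put on a common scale by quantile normalization, as in the study, and compared as log2 values with limma. Quantile normalization gives arrays the same set of values and keeps only the rank of a miRNA on its array. The p-values were adjusted over all 188 miRNAs that the software called detected on any array, and those under 0.05 are called. On this scale rno-miR-29a was 9.74 ± 0.08 (SD, n = 3) on day 2, 10.85 ± 0.05 on day 9, 10.85 ± 0.05 on day 16 and 11.52 ± 0.20 in serum. rno-miR-29b was 5.74 ± 0.25, 6.80 ± 0.27, 7.75 ± 0.04 and 6.72 ± 0.25 in the same order, highest in day 16 whey. rno-miR-29c was 7.69 ± 0.16, 7.99 ± 0.25, 8.26 ± 0.09 and 8.93 ± 0.17, highest in serum. These levels come from different probes and are not compared between members.

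**Figure D2:**
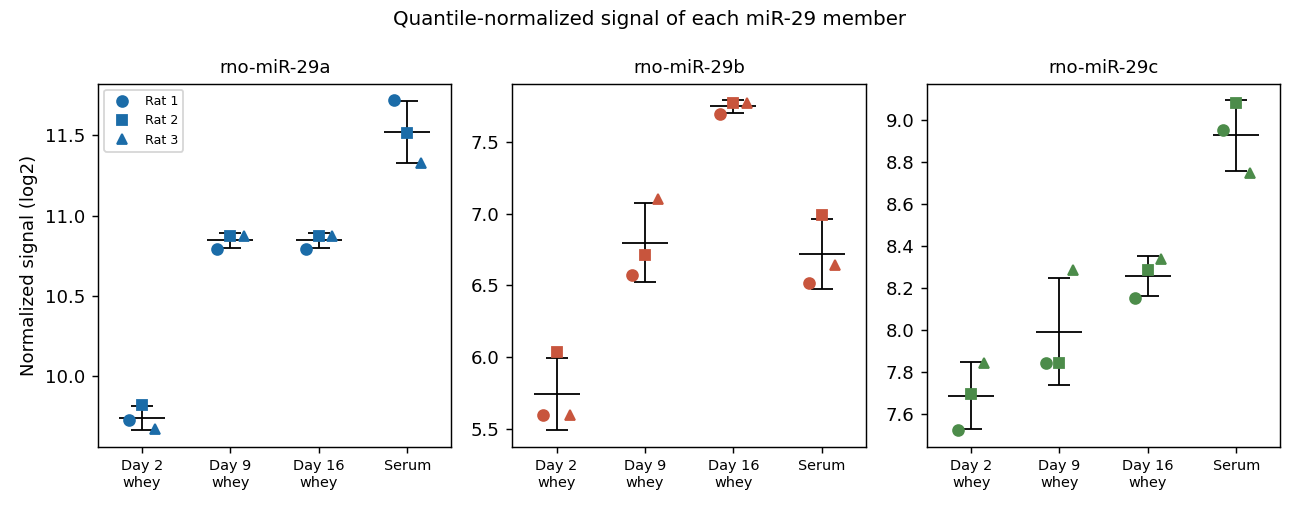
Quantile-normalized log2 signal of rno-miR-29a, rno-miR-29b and rno-miR-29c by group, with rats as symbols, the mean as a line and the SD as bars (n = 3). rno-miR-29a takes the same 3 values on days 9 and 16, and rno-miR-29b is highest on day 16 at 7.75 and falls to 6.72 in serum.

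Early in lactation, from day 2 to day 9, rno-miR-29a and rno-miR-29b rose and rno-miR-29c did not pass the test. rno-miR-29a rose 2.16-fold, a log2 difference of 1.11 (SE 0.10, limma adjusted p = 1.4e-05), and was higher in 3 of 3 rats. rno-miR-29b rose 2.08-fold, by 1.06 (SE 0.18, limma adjusted p = 0.00088), also in 3 of 3 rats. Day 2 values below the background limit of their array were also set to that limit, which touched 1 of 3 arrays. The estimated rise of rno-miR-29b was then 1.84-fold on this scale. This is no lower bound, as the 95% interval without the replacement began at 1.57-fold. rno-miR-29c differed by 0.30 (SE 0.15, limma adjusted p = 0.13, 95% interval -0.032 to 0.64), with overlapping groups. The 2 of 3 members called higher stand beside 28.2% of all 188 tested miRNAs called higher in this comparison. The median difference was 0.084 over all tested miRNAs and 1.06 over the members.

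The size of this early rise depended on how the arrays were scaled and background was corrected. With normexp background correction, which adds a fixed offset of 50 to every spot, rno-miR-29a differed by 1.08, rno-miR-29b by 0.58 (limma adjusted p = 0.0054) and rno-miR-29c by 0.88 (limma adjusted p = 4.9e-05), so that all 3 were called and rno-miR-29b rose least. That offset was larger than the mean day 2 spot signals of rno-miR-29b. When each array was instead scaled to its total signal, an alternative added after the data had been seen, rno-miR-29a differed by 0.37 (limma adjusted p = 0.16), rno-miR-29b by 0.24 (limma adjusted p = 0.59) and rno-miR-29c by -0.31 (limma adjusted p = 0.32). Under that scaling the median of all tested miRNAs also moved, to -0.43, and without any normalization it was 1.13, where the members differed by 2.22, 2.09 and 1.54. Set against the median of all tested miRNAs, rno-miR-29a lay 0.80 to 1.09 above it over 5 scalings, rno-miR-29b 0.67 to 0.97 and rno-miR-29c 0.12 to 0.41. Apart from quantile normalization, these scalings change each array by a single factor. The differences between members are therefore the same under each of them, and the 5 are not separate checks.

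Over the whole span from day 2 to day 16 all 3 members rose under quantile normalization. rno-miR-29b rose 4.01-fold, by 2.01 on the log2 scale (SE 0.18, limma adjusted p = 1.1e-05). With the background limit in place of the dim day 2 value, its estimated rise was 3.55-fold on this scale. That value is no lower bound, as the limma interval without the replacement began at 3.03-fold. rno-miR-29a rose 2.16-fold (log2 difference 1.11, limma adjusted p = 1.6e-05). rno-miR-29c rose 1.48-fold (log2 difference 0.57, SE 0.15, limma adjusted p = 0.0085), and its call was lost on scaling to the total signal, where the difference was 0.13 (limma adjusted p = 0.70). Each member was higher in 3 of 3 rats and no member's groups overlapped. How often this held among all 188 tested miRNAs was not counted, so it is given as a description. Of all 188 tested miRNAs, 32.4% were called higher, and the median difference was 0.13 over all of them and 1.11 over the members. The rise of rno-miR-29b was the largest of the 3 under each of 5 scalings. Apart from quantile normalization these give the same order of members by construction, since each changes an array by a single factor. With normexp rno-miR-29b did not rise most, and the rises were 1.20 for rno-miR-29a, 1.19 for rno-miR-29b and 1.17 for rno-miR-29c, each called. The rise itself ran from 1.37 to 3.39 for rno-miR-29b and from 0.81 to 2.82 for rno-miR-29a over 5 scalings. Against the median of all tested miRNAs it was 1.73 to 2.11 for rno-miR-29b, 0.98 to 1.54 for rno-miR-29a and 0.44 to 0.87 for rno-miR-29c.

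Between day 9 and day 16, rno-miR-29b alone among the members passed the test. It rose 1.93-fold, by 0.95 (SE 0.18, limma adjusted p = 0.0099), in 3 of 3 rats with no overlap. Overlap was not counted over the other miRNAs. Only 4.26% of the 188 tested miRNAs were called higher here. The call did not hold without normalization (1.30, limma adjusted p = 0.21), on scaling to the total signal (1.13, limma adjusted p = 0.13) or without the day 9 array of rat 1 (0.82, limma adjusted p = 0.053). It was also lost in the Tukey-Kramer test, which the study used for qPCR and protein values, once adjusted over miRNAs. Unadjusted, that test kept the call. The difference stayed positive in each of these settings. rno-miR-29c differed by 0.27 (limma adjusted p = 0.31, 95% interval -0.069 to 0.60). rno-miR-29a differed by 0.00 (95% interval -0.24 to 0.24). This value follows from its rank, which was 11, 10 and 10 in rats 1, 2 and 3 on both days, so that quantile normalization assigned the same numbers. With the upper quartile of all 388 signals as the scale, rno-miR-29a was higher on day 16 by 0.53 (limma adjusted p = 0.0025) and rno-miR-29c by 0.54 (limma adjusted p = 0.010).

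**Figure D3:**
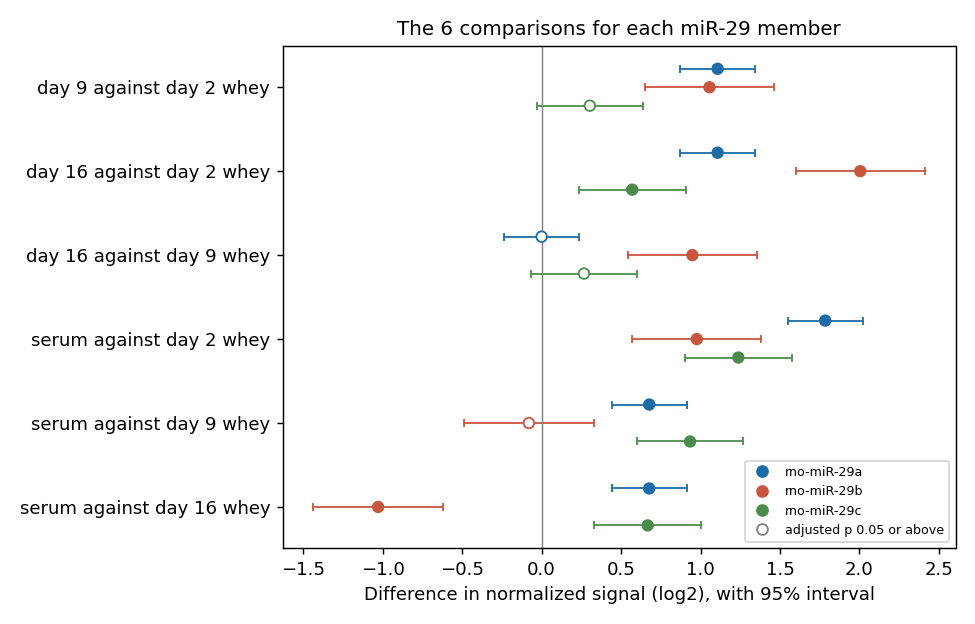
Log2 difference in quantile-normalized signal with its 95% interval for rno-miR-29a, rno-miR-29b and rno-miR-29c in each comparison, from limma, where open points did not pass the adjusted threshold of 0.05. In serum against day 16 whey, rno-miR-29b lies at -1.03 while rno-miR-29a and rno-miR-29c lie at 0.68 and 0.67.

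In serum against whey the members parted. Against day 16, the whey group on the same slide, rno-miR-29a was 1.60-fold higher in serum (log2 difference 0.68, SE 0.10, limma adjusted p = 0.00018) and rno-miR-29c 1.59-fold higher (0.67, SE 0.15, limma adjusted p = 0.0022). rno-miR-29b was 2.04-fold lower in serum, with a log2 difference of -1.03 (SE 0.18, limma adjusted p = 0.00045). All 3 directions were seen in 3 of 3 rats, and in no case did serum and day 16 overlap on the normalized scale. The share of all 188 miRNAs without such overlap was not counted. Serum differed from day 16 whey for most miRNAs, with 36.2% of the 188 called higher and 38.8% called lower. The lower level of rno-miR-29b was not called without normalization (-0.054, limma adjusted p = 0.92) or on scaling to the total signal (-0.36, limma adjusted p = 0.30), and it was smaller with normexp (-0.39, limma adjusted p = 0.023) and with the upper quartile of the 87 miRNAs present on every array as the scale (-0.46, limma adjusted p = 0.045). Over the 5 scalings rno-miR-29a lay 0.40 to 1.35 and rno-miR-29c 0.42 to 1.38 higher in serum. Against the median of all tested miRNAs rno-miR-29b was -1.14 to -0.95 over the 5 scalings, while rno-miR-29a lay 0.40 to 0.57 and rno-miR-29c 0.42 to 0.56 above that median.

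Against day 9 whey, rno-miR-29a was higher in serum by 0.68 (limma adjusted p = 0.00018) and rno-miR-29c by 0.93 (limma adjusted p = 0.00023), where 36.2% of all tested miRNAs were called higher. rno-miR-29b differed by -0.080 (SE 0.18, limma adjusted p = 0.72, 95% interval -0.49 to 0.33), and 2 of 3 rats were lower. Its sign turned under other scalings, to 1.24 without normalization (limma adjusted p = 0.012) and 0.70 with the upper quartile of the 87 miRNAs present on every array as the scale (limma adjusted p = 0.0060).

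Against day 2 whey all 3 members were higher in serum. The differences were 1.78 (SE 0.10, limma adjusted p = 1.4e-07) for rno-miR-29a, 0.98 (SE 0.18, limma adjusted p = 0.00064) for rno-miR-29b and 1.24 (SE 0.15, limma adjusted p = 2.9e-05) for rno-miR-29c. Of all tested miRNAs, 39.9% were called higher. Without normalization they were 4.17, 3.33 and 3.52. With the background limit in place of the dim day 2 value, rno-miR-29b was an estimated 1.74-fold higher in serum under quantile normalization. That value is no lower bound, as the limma interval without the replacement began at 1.48-fold.

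**Figure D4:**
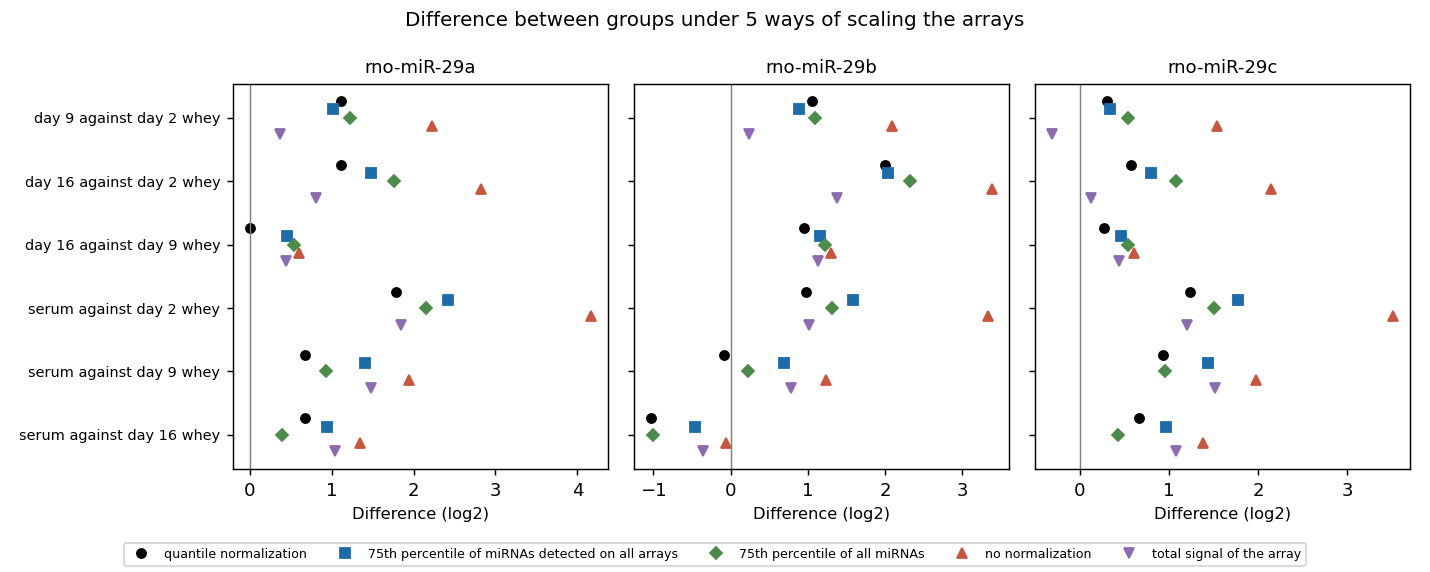
Log2 difference between groups for rno-miR-29a, rno-miR-29b and rno-miR-29c under 5 ways of scaling the arrays, each a symbol. Differences without normalization lie to the right of the quantile-normalized ones in all comparisons, and the difference of rno-miR-29c between days 9 and 2 runs from -0.31 to 1.54.

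The order of the groups therefore differed among the members under quantile normalization. For rno-miR-29a it was day 2, then days 9 and 16, then serum, and the neighbours days 9 and 16 were not separated by the test. For rno-miR-29b it was day 2, serum, day 9 and day 16, and the neighbours serum and day 9 were not separated. For rno-miR-29c it was day 2, day 9, day 16 and serum, where neither days 2 and 9 nor days 9 and 16 were separated as neighbours.

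Whether the members changed differently from one another was compared by the difference of a pair of members on the same array, from which any factor common to the array drops out. Its level depends on the probes and is not read, and its shift between groups can depend on the probe and on the background correction as well. Over the 3 whey days, rno-miR-29b gained on rno-miR-29c under quantile normalization. The difference rno-miR-29b minus rno-miR-29c had means of -1.95, -1.19 and -0.51 on days 2, 9 and 16, a gain of 1.43 between day 2 and day 16 (exact permutation test of F, 9 arrays, p = 0.0036, adjusted over 3 pairs p = 0.011). This p is the smallest that the 1680 arrangements allow. The 3 days did not overlap. The gain was 1.24 on the signals before normalization, 1.26 with the dim day 2 value of rno-miR-29b set to the background limit, 2.10 with the shorter probes alone and 1.44 with the longer, all past the threshold. With normexp it was 0.022 (exact permutation test, adjusted p = 0.054), so that no gain was seen between day 2 and day 16.

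rno-miR-29b also gained on rno-miR-29a under quantile normalization. Their difference had means of -4.00, -4.05 and -3.10 on days 2, 9 and 16, a gain of 0.90 between day 2 and day 16 (exact permutation test, p = 0.021, adjusted p = 0.021), of which -0.051 fell between days 2 and 9 and 0.95 between days 9 and 16. With the days permuted only within each rat, as a replicate block, the adjusted p was 0.083 for this pair. The gain was 0.57 before normalization, 0.72 with the dim day 2 value at the background limit and -0.0068 with normexp (exact permutation test, adjusted p = 0.054). When the gain arose depended on the probe, since the part between days 2 and 9 was 0.55 with the shorter probes, 0.038 with the longer and -0.23 at the background limit. Days 9 and 16 lay on different slides.

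rno-miR-29c lost against rno-miR-29a between days 2 and 9 under quantile normalization. Their difference had means of -2.05, -2.85 and -2.59 on the 3 days (exact permutation test, p = 0.011, adjusted p = 0.016), with a change of -0.80 between days 2 and 9, which shared a slide. Before normalization this change was -0.68, and day 2 did not overlap the later days on either scale. The change was -0.91 with the shorter probes and -0.62 with the longer. With normexp it was -0.20 and the pair did not pass the test (exact permutation test, adjusted p = 0.24).

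Between day 16 whey and serum, on 1 slide, the difference rno-miR-29b minus rno-miR-29a went from -3.10 to -4.80, a change of -1.71, and rno-miR-29b minus rno-miR-29c went from -0.51 to -2.21, a change of -1.70. With 3 arrays against 3, both gave an exact permutation p = 0.10, two-sided, which is the smallest that this design allows and cannot pass the threshold. The groups did not overlap for either pair. Before normalization the changes were -1.40 and -1.43, with normexp -1.06 and -0.998, with the shorter probes -1.55 and -1.46 and with the longer -1.80 and -1.74, with no overlap in any of them. rno-miR-29c minus rno-miR-29a was -2.60 in serum and -2.59 in day 16 whey, a change of -0.0094 (exact permutation p = 1). As a description, rno-miR-29a and rno-miR-29c moved together from day 16 whey to serum while rno-miR-29b moved apart from both. The probes of rno-miR-29a and rno-miR-29c meet the other miRNA with 1 mismatched base, and the part of crossing signal in this was not tested.

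**Figure D5:**
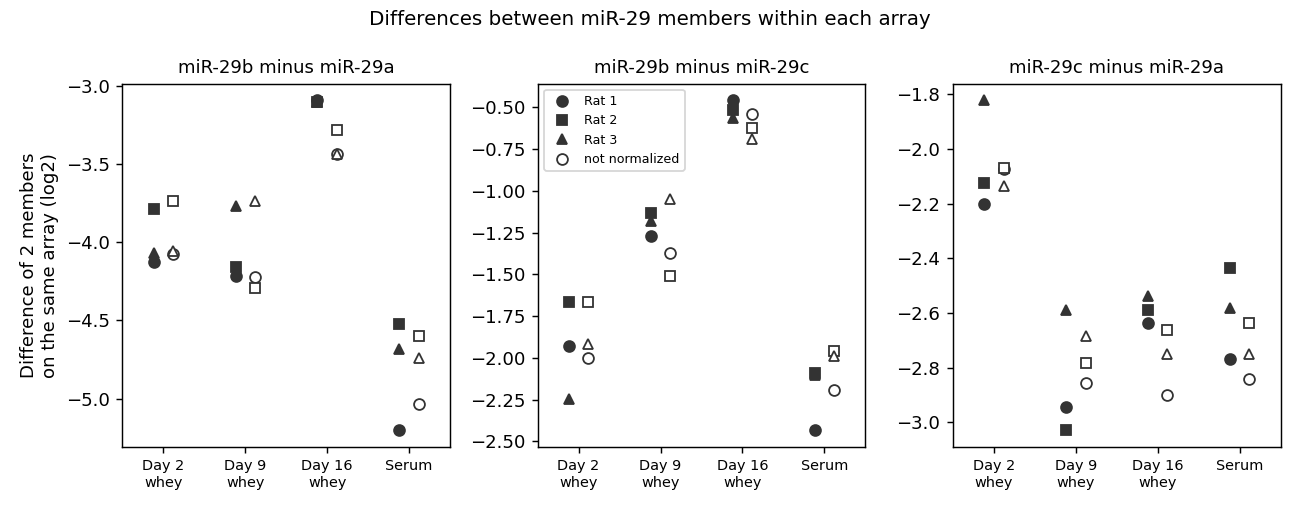
Log2 difference between 2 members on the same array by group, with rats as symbols, filled after quantile normalization and open before it. The differences of rno-miR-29b from rno-miR-29a and from rno-miR-29c have their highest group mean on day 16 and their lowest in serum on either scale. For rno-miR-29b minus rno-miR-29c, the arrays of day 2 and serum overlap.

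Over the 12 arrays the normalized values of rno-miR-29a and rno-miR-29c had a Pearson r of 0.87, against 0.58 for rno-miR-29b with rno-miR-29a and 0.43 for rno-miR-29b with rno-miR-29c. Over the 9 whey arrays alone the same values were 0.75, 0.87 and 0.89. The points of these correlations share 4 groups, 3 rats and 2 slides, and are given as a description.

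Each member's 2 probes were also compared alone. All 3 members kept the direction of every called comparison with either probe. Among the calls, only the rise of rno-miR-29b from day 9 to day 16 was not called with the shorter probe (0.80, limma adjusted p = 0.053), while it was with the longer (0.99, limma adjusted p = 0.024). The share of the total signal that came from the longer probe was 89.4 to 91.0% for rno-miR-29a over all groups. For rno-miR-29b it was 65.9 to 69.1% on day 9 and 74.0 to 76.6% on day 16, with no overlap. For rno-miR-29c it was 52.5 to 55.7% on day 2 and 59.2 to 63.0% on day 9.

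The opposite strands of the 4 hairpins were at or near background on these arrays. Of rno-miR-29a*, rno-miR-29b-1*, rno-miR-29b-2* and rno-miR-29c*, the names used by the array for what are now the 5p strands, only rno-miR-29c* was detected. It was detected on 0 of 3 arrays of day 2 whey and on 3 of 3 in each of day 9 whey, day 16 whey and serum. Its signal was 2.41 to 4.81 units on day 2, 12.9 to 20.2 on day 9, 11.3 to 19.3 on day 16 and 11.2 to 18.8 in serum. Its normalized means of 3.00, 4.28, 4.12 and 3.17 were below the mean background limits of their groups, 5.37, 4.46, 4.36 and 3.36, so that no fold is given.

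Among the 84 other miRNAs detected on all 12 arrays, those whose normalized values correlated most with rno-miR-29a were rno-miR-146a (r = 0.94), rno-miR-500 (r = 0.90) and rno-miR-23b (r = 0.89). For rno-miR-29c they were rno-miR-146a (r = 0.93), rno-miR-140* (r = 0.90) and rno-miR-223 (r = 0.87). rno-miR-146a, known for damping signalling by innate immune receptors, had means of 4.38, 6.15, 6.33 and 8.57 in day 2, day 9 and day 16 whey and serum. rno-miR-223, a miRNA of myeloid cells, had means of 6.11, 5.98, 6.66 and 11.94, so its likeness to rno-miR-29c comes with a high level in serum. For rno-miR-29b the closest were rno-miR-30a* (r = 0.93), rno-let-7i (r = 0.84) and rno-miR-99a (r = 0.75). All 3 were highest in day 16 whey, as rno-miR-29b was, with means there of 5.41, 9.90 and 7.88. No miRNA was on the lists of both rno-miR-29b and another member.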

How the data were processed

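Total RNA of whey and serum was labelled with Cy3 and read on 1-colour arrays, and the authors extracted the scans with Agilent Feature Extraction 9.5.3.1. The deposited intensity values are background-subtracted spot signals and their totals per miRNA, not normalized between arrays. A deposited table of quantile-normalized values was not used, since its 12 columns name no sample. The deposited value table equalled the scanner signals within 1% at all 8475 spots and served as an alternative.

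Total signals per miRNA were quantile-normalized over 12 arrays (limma 3.58.1, R 4.3.3), set to at least 1, turned to log2 and fitted with 4 group means on the 188 miRNAs that any array detected, with Benjamini-Hochberg adjustment and a threshold of 0.05, two-sided. The background limit of an array was the lowest normalized signal among miRNAs with at least 50% of spots well above background. Pair differences were tested by exact permutation. Named were the 3 members, the opposite strands and, for each member, the 3 miRNAs with the highest r. The scripts were tested on simulated data. The members, lists and tests were chosen with earlier results of these data known.

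The titles give rat numbers, so samples of the same number came from the same animal and the numbers pair the samples. Deviations from group means had a median correlation of 0.043 within a rat (18 pairs) and -0.034 between rats (36 pairs). The number of arrays, 3 per group, limits the precision. Alternatives were other scalings, floors, filters, background correction, an intensity trend, a replicate block, single probes, Tukey-Kramer tests, the compared arrays alone and leaving out each array. Floors, filters, the trend and the block left the differences of the members the same. No 2 arrays were identical.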

Additional observations from a re-analysis of the deposited data

How the results depend on the processing

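Of 582 values recomputed for 24 results, 546 kept direction and call. Of the 582, 261 left out a single array, and in others the difference or call could not change. The cause of changes was not tested. With the upper quartile of miRNAs present on every array as scale, rno-miR-29c between days 9 and 2 was called at 0.34, rno-miR-29a and rno-miR-29c between days 16 and 9 were called at 0.46 and 0.46, and rno-miR-29b in serum against day 9 turned to 0.70. With that of all miRNAs the same 4 values were 0.54, 0.53, 0.54 and 0.22. Without normalization rno-miR-29c between days 9 and 2 was called at 1.54 and rno-miR-29b gave 1.30 between days 16 and 9, 1.24 in serum against day 9 and -0.054 in serum against day 16. On the total signal, added after the data were seen, the values between days 9 and 2 were 0.37, 0.24 and -0.31 for rno-miR-29a, rno-miR-29b and rno-miR-29c, rno-miR-29c between days 16 and 2 gave 0.13, and rno-miR-29b gave 1.13 between days 16 and 9, 0.78 in serum against day 9 and -0.36 in serum against day 16. With normexp background correction rno-miR-29c between days 9 and 2 was called at 0.88 and rno-miR-29b in serum against day 9 was 0.22, and from the deposited value table they were 0.44 and 0.033. For rno-miR-29b between days 16 and 9 the call was lost in the Tukey-Kramer test (0.95), with the shorter probe (0.80) and without the day 9 array of rat 1, and leaving out single arrays gave 0.82 to 1.11. In serum against day 9, rno-miR-29b was 0.031 with the longer probe and -0.21 to 0.075 with single arrays left out. With the replicate block, the paired fit by rat, 18 of 18 limma results kept their call, while rno-miR-29b minus rno-miR-29a over the whey days, a gain of 0.90, lost its call with days permuted within rats (adjusted p = 0.083). rno-miR-29c minus rno-miR-29a between serum and day 16 was 0.028 before normalization and -0.089 to 0.077 with single arrays left out. With normexp, run for the pairs after the data were seen as were the single probes and the background limit, the gains over the whey days were -0.0068 for rno-miR-29b minus rno-miR-29a, 0.022 for rno-miR-29b minus rno-miR-29c and -0.029 for rno-miR-29c minus rno-miR-29a, none called.

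Over all tested miRNAs, 14 were called between days 16 and 9, against 27 on the upper quartile of all miRNAs, 22 with a floor of 5, 22 in the unadjusted Tukey-Kramer test, 1 in the adjusted one, 8 without the day 9 array of rat 1, and 0 without normalization or on the total signal, where limma gave 19 and 30 at an unadjusted p under 0.05. With the 87 miRNAs detected on all arrays alone, fewer were tested and 43, 49, 77, 68 and 76 were called in the other 5 comparisons, against 85, 104, 156, 140 and 141. Higher and lower calls between days 9 and 2 were 53 and 32, against 93 and 12 without normalization and 16 and 65 on the total signal. For days 16 and 2 they were 61 and 43, 104 and 15, and 22 and 65, and for serum against day 2 they were 75 and 81, 117 and 25, and 70 and 77. Against day 9 they were 68 and 72, 99 and 41, and 83 and 50, and against day 16 they were 68 and 73, 86 and 47, and 83 and 54. The dim day 2 signal of rno-miR-29b, at 14.9 to 25.6 units, limits the precision of its early rise.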
